A study of Mus musculus with 8 samples.

Results

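Integrin subunits were examined as a gene family in the tibialis anterior (TA) muscle of aged mice with and without fast myosin binding protein-C. The 10 genes described are *Itga1*, *Itga5*, *Itga6*, *Itga7*, *Itga9*, *Itgav*, *Itgb1*, *Itgb2*, *Itgb5* and *Itgb6*, chosen by their symbols from the 26 integrin subunit genes and the 16686 genes of the deposited table. Bulk RNA from the TA of 4 WT and 4 C2-/- male mice, all on the FVBN strain, was sequenced with one library per mouse. The age and dissection labels give 22 months for every mouse, while the husbandry label gives a younger age for both genotypes. In C2-/- mice, exons 2 to 22 of *Mybpc2* are replaced by a Neo cassette between LoxP sites, no tissue-restricted driver is named, and age was not varied among these mice. Expression is given as CPM, which is counts scaled to library size by edgeR's TMM method, and levels of different genes are compared as TPM, the authors' scaled value that also divides by transcript length. Gene positions are those of RefSeq on GRCm38.

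Integrins are receptors of the cell surface made of one α and one β chain, which bind proteins of the extracellular matrix outside the cell and, through talin, kindlin and vinculin, the actin cytoskeleton inside it. In adult muscle fibres the main receptor is α7β1, which holds the sarcolemma to laminin of the basement membrane at costameres and at the myotendinous junction. Other members serve other cells of the muscle: α5β1 and the αv receptors bind fibronectin and vitronectin, α1β1 binds collagen, α6 binds laminin in vessels and nerve sheaths, and β2 is made by leukocytes.

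The upstream sequences of 4 members were taken from RefSeq (build GRCm38.p6) and cover the 250 bases that end just before the annotated start of transcription. *Itgb5* and *Itgb1* are shown because they carry most of the β chain RNA of this muscle, and *Itga5* and *Itgb6* because they departed in opposite directions in one WT mouse. The window of *Itgb5* is chr16:33829415-33829664 (plus strand), that of *Itgb1* is chr8:128685404-128685653 (plus strand), that of *Itga5* is chr15:103366792-103367041 (minus strand) and that of *Itgb6* is chr2:60722604-60722853 (minus strand), the first of 2 annotated starts of that gene, of which the second is not shown. Capitals mark matches to the GC box GGGCGG, to the E-box CAGCTG that myogenic factors can bind, to the AP-1 site TGACTCA or to the TATA box TATAAA, on either strand.
*Itgb5*: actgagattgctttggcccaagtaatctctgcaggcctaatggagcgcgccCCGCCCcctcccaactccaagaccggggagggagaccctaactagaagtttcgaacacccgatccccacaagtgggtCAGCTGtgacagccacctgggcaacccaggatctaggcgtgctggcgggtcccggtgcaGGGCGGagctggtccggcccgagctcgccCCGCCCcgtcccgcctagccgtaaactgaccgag
*Itgb1*: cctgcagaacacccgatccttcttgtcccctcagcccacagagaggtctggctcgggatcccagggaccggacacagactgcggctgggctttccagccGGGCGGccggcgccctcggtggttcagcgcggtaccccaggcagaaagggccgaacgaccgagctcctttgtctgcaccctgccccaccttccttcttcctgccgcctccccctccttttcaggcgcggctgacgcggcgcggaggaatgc
*Itga5*: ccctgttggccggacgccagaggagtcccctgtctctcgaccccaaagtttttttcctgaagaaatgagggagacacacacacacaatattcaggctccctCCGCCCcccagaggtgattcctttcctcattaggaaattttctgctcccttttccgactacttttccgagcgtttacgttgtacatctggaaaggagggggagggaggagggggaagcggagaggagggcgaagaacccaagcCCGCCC
*Itgb6*: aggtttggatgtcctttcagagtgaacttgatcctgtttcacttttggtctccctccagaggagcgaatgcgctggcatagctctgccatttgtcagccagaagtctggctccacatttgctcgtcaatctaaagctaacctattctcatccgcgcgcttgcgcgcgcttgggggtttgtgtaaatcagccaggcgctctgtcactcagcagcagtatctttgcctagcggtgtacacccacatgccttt

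*Itgb5* held 3 GC boxes and 1 E-box, *Itga5* held 2 GC boxes, *Itgb1* held 1 GC box, and the window of *Itgb6* held none of the 4 motifs. A promoter sequence was matched for 7 of the 10 members, not for *Itga6*, *Itga7* and *Itgb2*, and 3 of the 7 had a GC box and 3 an E-box. Among all 32851 promoter windows of the same length, 32.7% had a GC box, 13.0% the E-box, 4.46% the AP-1 site and 12.4% the TATA box. These matches describe letters and not binding, and no motif search was tied to an expression difference.

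The libraries held 25425993 to 29747692 counts each, and 3 counts, the smallest level taken as detectable, equal 0.101 to 0.118 CPM, which covers counting error only. *Mybpc2* was expressed at 4964 to 7392 CPM in WT and at 3.85 to 38.3 CPM in C2-/-, with the highest C2-/- value in replicate 3 (edgeR log2 fold change −8.82, standard error 0.94, adjusted p = 0.0075). The 10 skeletal muscle fibre markers, among them *Myh4* at 27814 to 67068 CPM, summed to 157841 to 207449 CPM in WT and 163364 to 186791 CPM in C2-/-. WT replicate 2 stood apart from the other 7 mice, with a score of 50.4 on the first principal component against −15.9 to 0.347, so results that it moves are given with and without it. In 24.5% of the 12542 tested genes WT replicate 2 was the lowest of the 8 mice, and in 27.5% it was the highest.

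Of the 10 integrin subunits, 7 were higher and 3 were lower in C2-/- than in WT on average, and the CPM of the genotypes overlapped for every one of them. None of the 10 passed an adjusted p of 0.05 with a fold above 1.5 in edgeR's quasi-likelihood test, and none did in DESeq2 or limma-voom. By this rule 4 of the 12542 tested genes were called, or 0.0319%. Only *Itga6* had an unadjusted p under 0.05, as 5.29% of all tested genes did in either direction and 3.38% did with a higher level in C2-/-. Groups that did not overlap were found for 3.38% of all tested genes. The median log2 fold change of the members was 0.28, beside −0.02 over all tested genes, of which 45.8% were higher in C2-/-. Without WT replicate 2, 8 of the 10 were higher, the median was 0.17 beside 0.00 over all genes, and *Itga6* and *Itgb2* had an unadjusted p under 0.05, as 5.89% of 12672 genes did. In bulk RNA, fewer cells of a type and less RNA per cell cannot be told apart.

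**Figure D1:**
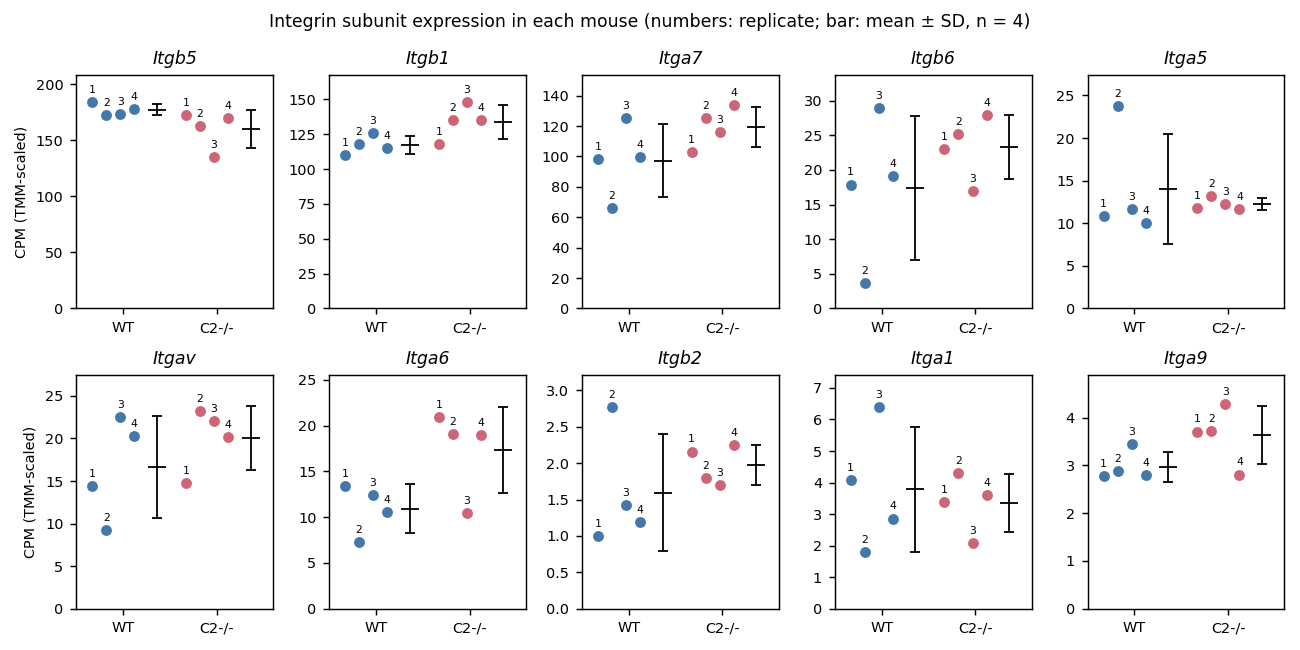
Expression of the 10 integrin subunits in each mouse, as CPM on linear axes that start at 0, with points numbered by replicate and a bar for the mean ± SD of the 4 WT (blue) and 4 C2-/- (red) mice. The genotypes overlap in all 10 panels, and WT replicate 2 lies lowest for *Itgb6* (3.65 CPM) and highest for *Itga5* (23.7 CPM).

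By TPM, 3 genes stood far above the others. *Itgb5* had the highest level with 95.1 ± 8.97 TPM (SD, n = 8 mice), followed by *Itgb1* with 55.3 ± 8.05 TPM and *Itga7* with 49.0 ± 12.2 TPM. *Itgb5* was above *Itgb1* in all 8 mice, whereas *Itgb1* was above *Itga7* in 6 of 8, so these neighbours were not separated in every mouse. The next level was that of *Itgb6*, 8.0 ± 3.43 TPM, which was below *Itga7* in all 8 mice and above *Itga5* in 7 of 8. In WT replicate 2 *Itgb6* was at 1.29 TPM, below *Itga5* at 8.86 TPM and also below *Itgb2* at 1.64 TPM. *Itga5*, *Itgav* and *Itga6*, at 5.44, 4.79 and 4.43 TPM, kept their order in only 3 and 5 of 8 mice and were within each other's spread. *Itgb2*, *Itga1* and *Itga9*, at 1.17, 1.11 and 1.02 TPM, formed the lowest step, and *Itga6* was above *Itgb2* in all 8 mice. These levels describe the order of the genes and were not tested.

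*Itga7* encodes the laminin-binding α chain of the muscle fibre and lies on chromosome 10 from 128933421 to 128958286, where it overlaps *Mettl7b*. Its expression was 98.3, 66.1, 125 and 99.4 CPM in WT replicates 1 to 4 and 103, 125, 116 and 134 CPM in C2-/- replicates 1 to 4. WT replicate 2 was the lowest mouse, and WT replicate 3 reached the level of the C2-/- mice. The mean was 97.2 ± 24.1 CPM in WT and 119.5 ± 13.3 CPM in C2-/- (SD, n = 4). The edgeR log2 fold change of 0.30 (95% interval −0.10 to 0.70, adjusted p = 0.968) did not pass, and it was 0.16 without WT replicate 2. Without WT replicate 3 it was 0.45 (unadjusted p = 0.0276, adjusted p = 0.593). Mural cells of vessels also make *Itga7*. Their 9 markers, all tested, were higher in C2-/- in 9 of 9. In edgeR 2 (*Cspg4* and *Pdgfrb*, followed by *Rgs5*) had an unadjusted p under 0.05, or 1 (*Cspg4*) without WT replicate 2. Over all tested genes the edgeR share was 5.29%, or 5.89% without WT replicate 2. There were 2 such markers in DESeq2 and 3 in limma-voom, whose shares over all genes are not given. The 9 markers summed to 483 to 673 CPM in WT, lowest in replicate 2, and to 654 to 735 CPM in C2-/-. A large part of each sum was *Abcc9* alone, at 207 to 331 CPM over the mice and lowest in WT replicate 1. The sums thus lean on this gene. The part of mural cells in the *Itga7* values was not tested.

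*Itgb1* encodes the β chain that pairs with α7 and with most other α chains of these cells, and is on chromosome 8 (128685654 to 128733579), where the table's interval overlaps *Gm46066*. Expression was 110.3, 118, 126 and 115 CPM in WT and 118, 135, 148 and 135 CPM in C2-/-. In 3 C2-/- mice it was above every WT mouse, and C2-/- replicate 1 lay inside the WT range. The mean was 117 ± 6.58 CPM in WT and 134 ± 12.3 CPM in C2-/- (SD, n = 4). The edgeR fold of 1.14 (95% interval 0.969 to 1.34, adjusted p = 0.968) did not pass. Leaving out C2-/- replicate 1 gave a log2 fold change of 0.25 (unadjusted p = 0.0470, adjusted p = 0.983). Without C2-/- replicate 3 it was 0.14 (unadjusted p = 0.254). These were the highest and lowest log2 fold changes of the fits that each left out a mouse.

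*Itga6* encodes another laminin-binding α chain, best known from endothelium, epithelium and the nerve sheath, and is on chromosome 2 (71786886 to 71858427). Expression was 13.4, 7.33, 12.4 and 10.6 CPM in WT and 20.9, 19.1, 10.4 and 19.0 CPM in C2-/-. In 3 C2-/- mice it was above every WT mouse, and C2-/- replicate 3 lay below 3 of the 4 WT mice. The mean was 10.9 ± 2.68 CPM in WT and 17.3 ± 4.73 CPM in C2-/- (SD, n = 4), a fold of 1.58 with a 95% interval of 1.09 to 2.30. The unadjusted p was 0.0207 and the adjusted p 0.849 in edgeR, with adjusted p between 0.499 and 1.0 over the 15 alternatives. Without C2-/- replicate 1, 2 or 4 the unadjusted p was 0.0601, 0.0508 and 0.0514. Without C2-/- replicate 3 it was 0.0021, with a log2 fold change of 0.84 in place of 0.66. Without WT replicate 2, the lowest mouse, it was 0.0398, with a log2 fold change of 0.52. Of 10 endothelial markers, 6 were higher and 4 lower, and 0 had an unadjusted p under 0.05 in edgeR, DESeq2 or limma-voom, with the smallest p for *Pecam1* (log2 fold change −0.18), *Egfl7* (0.13) and *Erg* (−0.12). They summed to 283 to 403 CPM in WT and 279 to 379 CPM in C2-/-. Schwann cell markers summed to 54.1 to 115 CPM in WT and 48.0 to 87.5 CPM in C2-/-, with 1 of 7 higher and 6 lower and the smallest p for *Mbp* (−0.52), *S100b* (−0.91) and *Pmp22* (−0.20). None of the 7 had an unadjusted p under 0.05 in edgeR, DESeq2 or limma-voom. Without WT replicate 2, *Mbp* and *S100b* had one in edgeR, beside 5.89% of all genes tested in that fit.

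The laminin-binding α chains were also set against each other within each mouse, which is free of library scaling. On the log2 scale, *Itga6* minus *Itga7* in TPM was −3.41, −3.70, −3.86 and −3.76 in WT and −2.83, −3.23, −4.01 and −3.35 in C2-/-. *Itga7* thus had the higher level in all 8 mice, and C2-/- replicate 3 had the lowest ratio. The means of −3.68 ± 0.193 and −3.36 ± 0.487 (SD, n = 4) differed with p = 0.286 in a two-sided exact permutation test, where 4 mice against 4 allow no p under 0.0286.

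**Figure D2:**
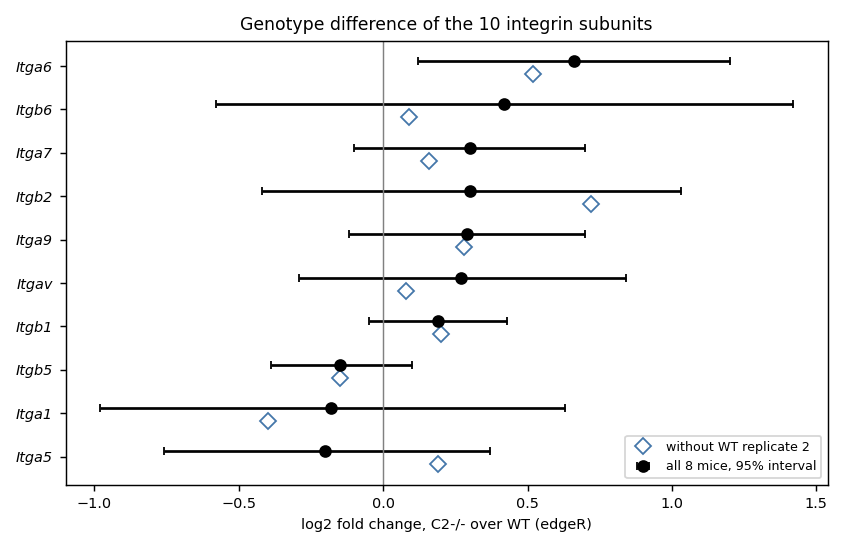
edgeR log2 fold change of C2-/- over WT for each of the 10 subunits, with black points and bars for all 8 mice and their 95% interval and open diamonds for the fit without WT replicate 2. *Itga6* has the only interval above 0, from 0.12 to 1.20, and the diamond of *Itga5* lies on the other side of 0 from its point.

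*Itga5* encodes the α chain of the fibronectin receptor and is on chromosome 15 (103344286 to 103366791). Expression was 10.8, 23.7, 11.7 and 9.99 CPM in WT and 11.8, 13.2, 12.3 and 11.7 CPM in C2-/-. WT replicate 2 was far above the other 7 mice, which lay within 9.99 to 13.2 CPM. The log2 fold change of −0.20 (95% interval −0.76 to 0.37, edgeR adjusted p = 0.976) turned to 0.19 without WT replicate 2 (adjusted p = 0.977). *Itgav* encodes the αv chain, which pairs with β1, β3, β5, β6 and β8, and is on chromosome 2 (83722303 to 83806917). Expression was 14.4, 9.30, 22.5 and 20.3 CPM in WT and 14.8, 23.2, 22.1 and 20.2 CPM in C2-/-. The lowest value was again in WT replicate 2 and the groups overlapped, with a log2 fold change of 0.27 (95% interval −0.29 to 0.84, edgeR adjusted p = 0.968), or 0.08 without that mouse. It was 0.46 without WT replicate 3 and 0.40 without WT replicate 4 or C2-/- replicate 1.

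*Itgb5* encodes the β chain of the vitronectin receptor αvβ5 and is on chromosome 16 (33829665 to 33949338). Expression was 184, 173, 174 and 178 CPM in WT and 173, 163, 135 and 169.7 CPM in C2-/-. The WT mice were close together and C2-/- replicate 3 was the lowest. The fold of 0.904 (95% interval 0.766 to 1.07, edgeR adjusted p = 0.968) did not pass, and the 8 fits that each left out one mouse stayed between −0.18 and −0.07 on the log2 scale. Its mean was 177 ± 4.77 CPM in WT and 160.2 ± 17.3 CPM in C2-/- (SD, n = 4). It was 17.0 to 40.9 times the TPM of its partner *Itgav* in WT and 13.5 to 25.5 times in C2-/-. The 40.9 was that of WT replicate 2, and WT replicates 1, 3 and 4 were at 28.1, 17.0 and 19.1.

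*Itgb6* encodes the β chain of αvβ6, which activates latent TGF-β and is known from epithelium, and is on chromosome 2 (60598292 to 60722603). Expression was 17.9, 3.65, 28.9 and 19.1 CPM in WT and 23.0, 25.2, 17.0 and 28.0 CPM in C2-/-. WT replicate 2 had the lowest level, with a difference of −2.53 log2 units from the mean of the other WT mice, and the remaining 7 mice lay between 17.0 and 28.9 CPM. The log2 fold change was 0.42 (95% interval −0.58 to 1.42, edgeR adjusted p = 0.971), and 0.09 without WT replicate 2. It was 0.78 without WT replicate 3, 0.74 in limma-voom and 0.66 with the replicate number as a block. Epithelial markers were low: *Epcam* was at 0 in all mice but WT replicate 4 (0.0362 CPM), *Krt5* at 0 in all mice but WT replicate 1 (0.116 CPM), and *Cdh1* at 0 to 0.463 CPM. The keratin *Krt18* was at 0.224 to 2.73 CPM, *Krt8* at 0.0386 to 2.12 CPM, *Krt19* at 0.0709 to 0.771 CPM and *Sfn* at 0.29 to 0.887 CPM, in part above the level of 3 counts. Of 7 such markers in the table, 2 were tested, both higher in C2-/-, and all 7 summed to 1.16 to 5.22 CPM in WT, highest in replicate 2, and 1.04 to 4.19 CPM in C2-/-.

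*Itga1* encodes a collagen-binding α chain and lies on chromosome 13 from 114958079 to 115101964, where it overlaps *Pelo*, and *Itga9* encodes an α chain that binds tenascin and lies on chromosome 9 from 118606709 to 118901003. *Itga1* was at 4.09, 1.79, 6.39 and 2.86 CPM in WT and 3.37, 4.31, 2.09 and 3.61 CPM in C2-/-. Its WT values enclosed all C2-/- values, and the log2 fold change of −0.18 (95% interval −0.98 to 0.63, edgeR adjusted p = 0.987) became 0.21 without WT replicate 3 and −0.40 without WT replicate 2. *Itga9* was at 2.78, 2.88, 3.44 and 2.79 CPM in WT and 3.71, 3.72, 4.29 and 2.81 CPM in C2-/-. In 3 C2-/- mice it was above every WT mouse, and C2-/- replicate 4 was not. The log2 fold change of *Itga9* was 0.29 (95% interval −0.12 to 0.70, edgeR adjusted p = 0.968), with 0.20 to 0.39 in the 8 fits without one mouse.

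*Itgb2* encodes the β chain of the leukocyte integrins and is on chromosome 10 (77530329 to 77565708). Expression was 1.0, 2.77, 1.42 and 1.19 CPM in WT and 2.16, 1.79, 1.70 and 2.25 CPM in C2-/-. The other 3 WT mice were below all 4 C2-/- mice, and WT replicate 2 was above them. The log2 fold change was 0.30 (95% interval −0.42 to 1.03, edgeR adjusted p = 0.971), and without WT replicate 2 it was 0.72 (standard error 0.26, unadjusted p = 0.0186, adjusted p = 0.711). It was 0.14 without WT replicate 1 and 0.20 without WT replicate 4. The 15 leukocyte markers summed to 54.8, 182, 106 and 91.0 CPM in WT and 114, 97.5, 145 and 122 CPM in C2-/-, also highest in WT replicate 2. In that mouse the neutrophil genes *S100a8*, *S100a9* and *Ly6g* were at 12.8, 16.7 and 0.584 CPM, and *Ly6g* was at 0 in the other 7 mice. *Ptprc*, *Lyz2*, *Cd14*, *Cd74* and *Coro1a* were also highest in WT replicate 2. The remaining markers, *Cd68*, *Adgre1*, *Csf1r*, *Mrc1*, *Laptm5*, *Cd3e* and *Cd79a*, were highest in other mice. Of the 13 leukocyte markers tested, 9 were higher and 4 lower. In edgeR the unadjusted p was under 0.05 for *Cd79a* and *Laptm5* upward and *S100a8* and *S100a9* downward, beside 5.29% of all tested genes. DESeq2 gave 3 such genes and limma-voom 1. Without WT replicate 2 there were 3 upward and 0 downward in edgeR, beside 5.89% of all genes tested in that fit. *S100a8* and *S100a9* then had an unadjusted p of 0.66 and 0.533. The median log2 fold change of the 13 was 0.23, and 0.47 without WT replicate 2. The part of leukocytes in the *Itgb2* values was not tested. The α chains that pair with β2 summed to 2.04 to 3.83 CPM in WT and 2.20 to 3.97 CPM in C2-/-.

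**Figure D3:**
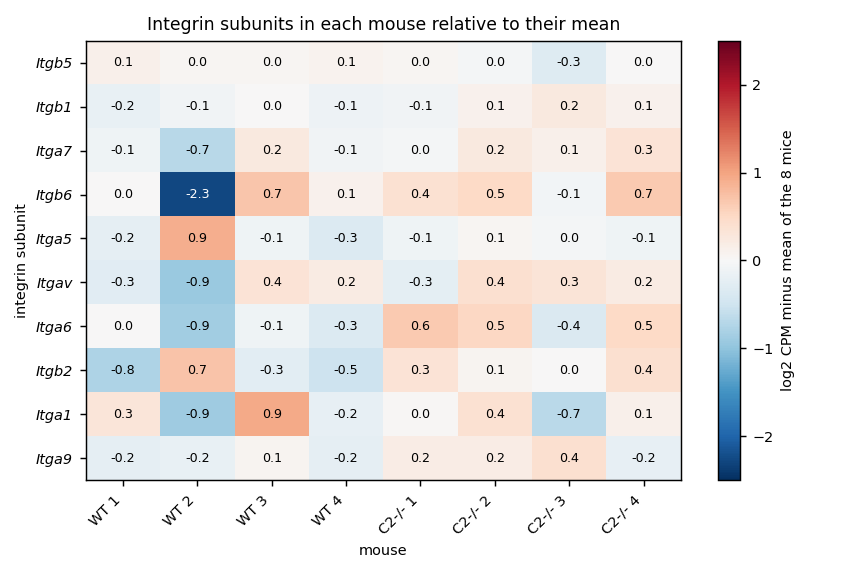
Log2 CPM of each integrin subunit (rows) in each mouse (columns) minus the mean of the 8 mice, in blue for lower and red for higher. The column of WT replicate 2 holds the lowest value of the row for 5 genes, the deepest for *Itgb6*, and the highest for *Itga5* and *Itgb2*.

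WT replicate 2 was the lowest of the 8 mice for 5 members, *Itga1*, *Itga6*, *Itga7*, *Itgav* and *Itgb6*, and the highest for 2, *Itga5* and *Itgb2*. On the log2 scale it differed from the mean log2 level of the other WT mice by −1.20 for *Itga1*, −0.72 for *Itga6*, −0.69 for *Itga7*, −1.01 for *Itgav*, 1.13 for *Itga5* and 1.17 for *Itgb2*. *Itgb1*, *Itgb5* and *Itga9* differed there by 0.02, −0.04 and −0.05. Immediate early genes such as *Fos* were high in this mouse (summed 769.8 CPM), but also in WT replicate 4 (1565 CPM) and C2-/- replicate 2 (1015 CPM), against 148 to 192 CPM in the other 5 mice.

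Within each mouse, *Itga7* made up most of the summed TPM of the 12 α chains that can pair with β1. Its share was 66.6%, 57.7%, 68.8% and 67.1% in WT and 64.5%, 67.2%, 68.7% and 69.5% in C2-/-. The lowest share was in WT replicate 2, where *Itga5* took 19.2% against 5.66% to 6.91% in the other mice. The means of 65.0% ± 4.97 and 67.5% ± 2.24 (SD, n = 4) differed by 2.43 percentage points, with p = 0.457 in a two-sided exact permutation test, and by −0.00661 points without WT replicate 2. *Itga6* took 4.28% to 9.05%, *Itgav* 4.63% to 7.93%, *Itga1* 0.850% to 2.41% and *Itga9* 0.911% to 1.90%.

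Among the 8 β chains, *Itgb5* and *Itgb1* held nearly all of the summed TPM. The share of *Itgb1* was 29.4%, 33.1%, 32.7% and 31.2% in WT and 31.4%, 35.9%, 42.5% and 34.8% in C2-/-. In 3 C2-/- mice it was above all WT mice, and C2-/- replicate 1 was not. The means of 31.6% ± 1.72 and 36.1% ± 4.63 (SD, n = 4) differed by 4.55 percentage points, with p = 0.0857 in a two-sided exact permutation test and 0.257 after Benjamini-Hochberg adjustment over the 3 values tested this way. Without C2-/- replicate 3 the difference was 2.44 points. *Itgb5* held 58.2% to 62.8% in WT and 49.9% to 59.4% in C2-/-, *Itgb6* 0.919% to 6.54% and *Itgb2* 0.397% to 1.17%. The α chains that pair with β1 summed to 0.995 to 1.47 times the TPM of *Itgb1*, lowest in WT replicate 2.

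**Figure D4:**
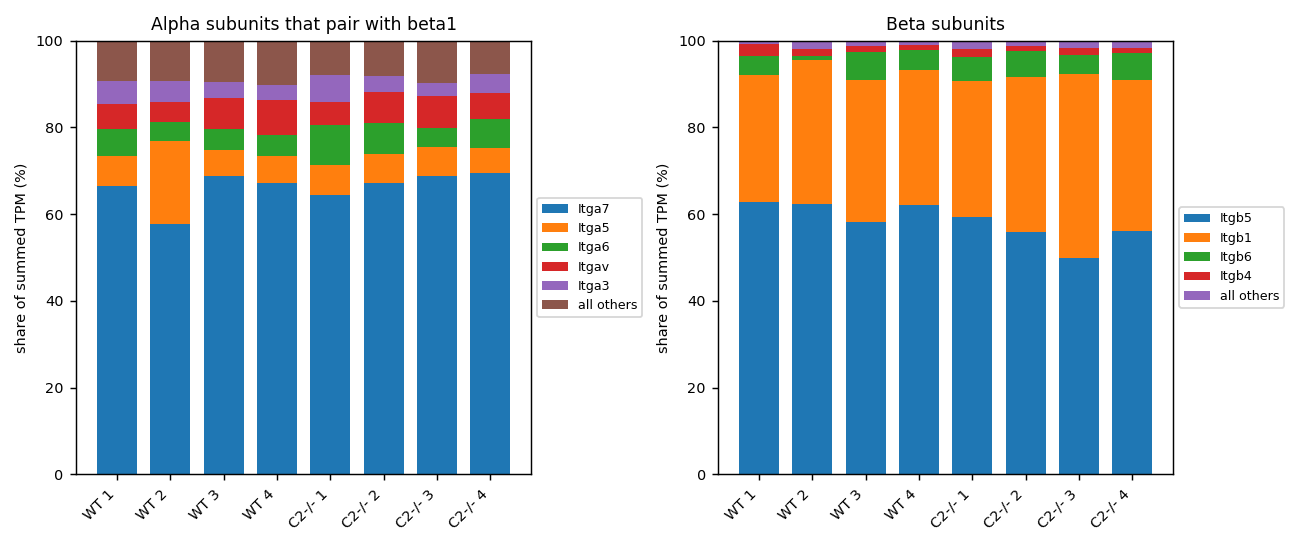
Stacked bars of the share of summed TPM, in percent, held by each α chain that can pair with β1 (left) and by each β chain (right), one bar per mouse. *Itga7* is the largest α part in every mouse, with 57.7% to 69.5%, the *Itga5* part is widest in WT replicate 2, and the *Itgb1* part is widest in C2-/- replicate 3 (42.5%).

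Of the other 16 integrin subunits in the table, 11 were tested, of which 8 were higher and 3 lower in C2-/-, with a median log2 fold change of 0.27, or 0.17 without WT replicate 2. *Itga10*, a collagen-binding α chain, was the only one with an unadjusted p under 0.05, beside 5.29% of all tested genes. It was at 0.36 ± 0.226 CPM in WT and 0.771 ± 0.159 CPM in C2-/- (SD, n = 4). Its log2 fold change was 1.08 (standard error 0.46, edgeR unadjusted p = 0.0401, adjusted p = 0.918), on 3 to 26 counts per mouse. *Itgb7*, another leukocyte β chain, followed with 0.66 (unadjusted p = 0.0587, or 0.0409 without WT replicate 2), and *Itga11*, the collagen receptor of fibroblasts, with −0.24 (unadjusted p = 0.117). Members and other subunits were also grouped together by ligand, so the members' values enter again here. The laminin-binding chains, with the members *Itga6* and *Itga7*, were higher in 3 of 3. The chains for fibronectin and other RGD ligands, with the members *Itgav* and *Itga5*, were higher in 3 of 4. The collagen-binding chains, with the member *Itga1*, were higher in 1 of 3.

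The cytoplasmic proteins that tie integrins to actin were close to even, with 21 of 39 higher and 18 lower and a median log2 fold change of 0.01. Talin genes were at 195 and 207 CPM in WT and C2-/- for *Tln1* and at 99.6 and 119 CPM for *Tln2*, kindlin *Fermt2* at 249.7 and 235 CPM, *Vcl* at 103 and 111 CPM and *Ilk* at 43.3 and 40.5 CPM. *Flna*, the actin crosslinker filamin A, was the only one of the 39 with an unadjusted p under 0.05, beside 5.29% of all tested genes. It was at 43.3 CPM in WT and 60.6 CPM in C2-/- (log2 fold change 0.48, edgeR adjusted p = 0.766). *Git2* (−0.27) and *Src* (0.35) followed, with adjusted p of 0.968. Among 18 regulators and membrane partners, 8 were higher and 10 lower with a median of −0.01. Of these, 0 had an unadjusted p under 0.05 in edgeR, DESeq2 or limma-voom. Without WT replicate 2 there was 1 in edgeR (*Cd82*), beside 5.89% of all genes tested in that fit. The smallest p in this group was that of *Bsg* (log2 fold change −0.37, unadjusted p = 0.0594), followed by *Cd9* (0.28) and *Slc3a2* (−0.25), and *Itgb1bp2*, the β1-binding melusin of muscle, was at 94.0 and 98.0 CPM.

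Of the extracellular ligands, 32 of 41 were higher and 9 lower, and their median log2 fold change was 0.24, or 0.21 without WT replicate 2. Of these, 10 upward and 1 downward (*Icam1*, a ligand of β2 integrins, −0.96) had an unadjusted p under 0.05, beside the 5.29% of all genes given above. The groups did not overlap for 8 of the 41, beside 3.38% of all tested genes. None passed an adjusted p of 0.05 in edgeR or limma-voom, and 1 did in DESeq2 (*Col1a1*, adjusted p = 0.0405). The smallest p were those of the collagen genes *Col6a1* (26.9 and 47.8 CPM in WT and C2-/-, log2 fold change 0.83), *Col5a1* (15.8 and 26.9 CPM, 0.77) and *Col1a1* (50.7 and 125 CPM, 1.30), with adjusted p of 0.598, 0.608 and 0.608. *Fn1*, the ligand of α5β1, was at 28.3 and 65.2 CPM (1.20, adjusted p = 0.766), whereas *Lama2*, the laminin chain that α7β1 binds, was at 43.4 and 49.3 CPM (0.19, adjusted p = 0.974). Fibroblast markers were higher in 10 of 10 with a median of 0.41, and *Gsn*, *Dpt* and *Clec3b* had the smallest p. Of the 10, 4 had an unadjusted p under 0.05 in edgeR, beside 5.29% of all tested genes. There were 6 in edgeR without WT replicate 2, beside 5.89% of all genes tested in that fit. DESeq2 and limma-voom, whose shares over all genes are not given, also gave 6. The 10 markers summed to 697 to 840 CPM in WT and 875 to 1061 CPM in C2-/-. A large part of each sum was *Gsn* alone, at 349 to 448 CPM in WT and 458 to 622 CPM in C2-/-. Tendon markers were higher in 7 of 8 with a median of 1.22, or 0.85 without WT replicate 2. Their smallest p in edgeR were those of *Tnmd* (1.43, the one unadjusted p under 0.05), *Col12a1* (1.32) and *Thbs4* (0.57). In DESeq2 and in limma-voom, 2 tendon markers had an unadjusted p under 0.05. Over all tested genes, 5.29% had one in edgeR. The lower tendon marker was *Scx* (−0.13). The tendon markers summed to 59.7 to 198 CPM in WT and 100.1 to 277 CPM in C2-/-. A large part of each sum was *Fmod*, at 15.8 to 147 CPM over the mice, and *Thbs4*, at 26.7 to 81.4 CPM. The part of these cells in the ligand values and in those of *Itga1*, *Itga5*, *Itga9* and *Itgav* was not tested.

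**Figure D5:**
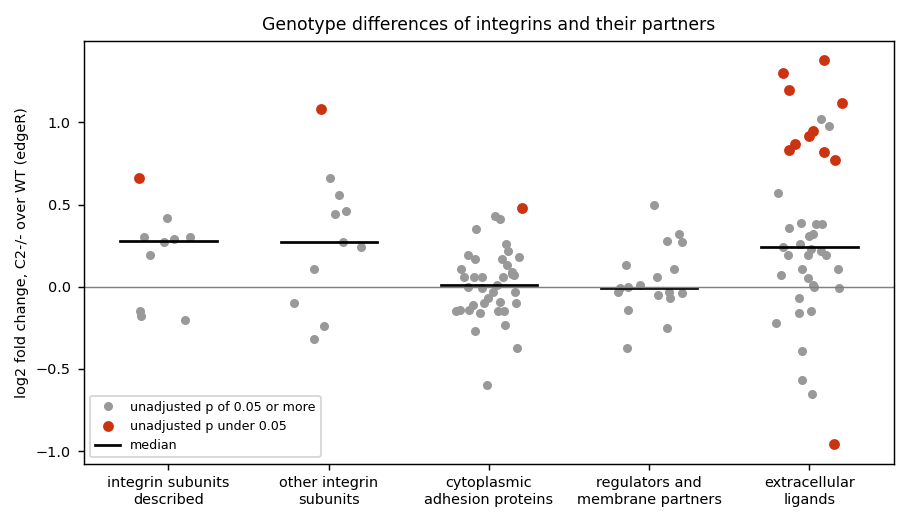
edgeR log2 fold change of C2-/- over WT for each tested gene (points) of the 10 integrin subunits, the other subunits, the cytoplasmic adhesion proteins, the regulators and the extracellular ligands, with red points for an unadjusted p under 0.05 and black lines for medians. Medians are 0.28, 0.27, 0.01, −0.01 and 0.24 from left to right, and 11 of the 41 ligands are red.

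The genes whose profile over the 8 mice was nearest were found by the mean absolute difference of log2 CPM after each gene's own mean was removed. For *Itgb1* these were *App*, *Gle1* and *Ap4e1*, at 0.040, 0.056 and 0.057 log2 units, where the median tested gene was at 0.23. For *Itga7* they were *Eid2b*, *Etv6* and *Wrb*, at 0.060, 0.061 and 0.064, where the median was 0.31, and for *Itgb2* they were *Cotl1*, *Ltc4s* and *Bbc3*, at 0.11, 0.14 and 0.15, where the median was 0.42. Among the tested subunits, *Itga9* was nearest to *Itgb1* (0.14), *Itgb1* was nearest to *Itga7* (0.18), and *Itga5* was nearest to *Itgb2* (0.25). These distances rest on 8 mice of which one stands apart, and they are given without a test.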

How the data were processed

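The authors sequenced TA poly(A) RNA, aligned reads to GRCm38 with HISAT and deposited expected counts per gene without normalization, with TPM from the same reads. Strand use in counting is not stated, so the counts of overlapping genes are uncertain. The 8 columns of FPKM and the authors' averages, fold changes, p-values and q-values were not used. Expected counts, 5.50% to 6.53% of them not whole, were rounded. edgeR 4.0.16 in R 4.3.3 tested WT against C2-/- by quasi-likelihood with TMM factors (0.929 to 1.03), its default filter (12542 genes) and Benjamini-Hochberg adjustment over all of them. Shares and ratios from TPM were tested by exact permutation with scipy 1.17.1. Alternatives were DESeq2 1.42.0, limma-voom 3.58.1, RLE factors, total counts alone, other filters, the replicate number as a block, and each mouse left out. The edgeR step was tested on simulated counts. The labels number mice 1 to 4 per genotype and do not say more of their origin.

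The members and the lists of other subunits, adhesion proteins, regulators, ligands and cell type markers were chosen with earlier results of these data known. Named genes are all 10 members and, among the other subunits, the 3 with the smallest unadjusted p. Other subunits that can pair with a member were counted, but not all of them are named. Of each other list whose unadjusted p were counted, the 3 genes with the smallest p are named. Also named are genes that define an adhesion protein, ligand or cell type beside a member's result. The 3 genes nearest in profile to *Itga7*, *Itgb1* and *Itgb2* are named as well. *S100a8*, *Ly6g*, *Krt5*, *Cdh1*, *Fos*, *Krt8*, *Krt19*, *Icam1*, *Cd82* and *Itgb7* were named after their values were seen. The same holds for *Abcc9*, *Lyz2*, *Cd14*, *Cd74*, *Coro1a*, *Cd68*, *Adgre1*, *Csf1r*, *Mrc1*, *Cd3e*, *Fmod* and *Scx*.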

Additional observations from a re-analysis of the deposited data

Results flagged for a closer look

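Among 20 groups of 4 mice, one for each of the 10 integrin subunits in each genotype, 2 had a mouse far from the others by Dixon's criterion, where chance gives about 1 in 20 groups. *Itga5* was at 23.7 CPM in WT replicate 2, with a gap to the next WT mouse of 0.876 of the range of the group. *Itga9* was at 3.44 CPM in WT replicate 3, with a gap of 0.840 of the range, although the 4 WT values spanned only 2.78 to 3.44 CPM.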

How the results depend on the processing

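Of the 150 fold changes of the 10 integrin subunits under 15 alternatives, 148 kept their direction and their side of the adjusted threshold, and 2 reversed. *Itga1* was between −0.40 and 0.21 on the log2 scale when each mouse was left out, with 0.21 without WT replicate 3, and *Itga5* was between −0.31 and 0.19, with 0.19 without WT replicate 2. The count of subunits called was 0 under every alternative, and 1 subunit had an unadjusted p under 0.05 in all but the fits that left out a mouse, where this number ranged from 0 to 2. Without one mouse this number was 0 to 2 for the other subunits (2 without WT replicate 2, 0 without WT replicate 1 or 4 or C2-/- replicate 2, 3 or 4), 1 to 2 for the cytoplasmic adhesion proteins (2 without WT replicate 1 or 3 or C2-/- replicate 2), 0 to 1 for the regulators (1 without WT replicate 1 or 2 or C2-/- replicate 1 or 3) and 10 to 16 for the ligands. The difference in the log2 ratio of *Itga6* to *Itga7* was 0.152 to 0.543, lowest without C2-/- replicate 1 and highest without C2-/- replicate 3. Scaling by total counts alone gave 2 other subunits. The difference in the *Itga7* share lay between −0.00661 and 3.67 percentage points without one mouse, reversed without WT replicate 2. The cause of these shifts was not tested. With the replicate block, 3 cytoplasmic adhesion proteins in place of 1 had an unadjusted p under 0.05, and *Itga6* kept its log2 fold change at 0.65 (unadjusted p = 0.0324). Mice with the same number are different animals, and their deviations correlated at 0.362, 0.0663, −0.0653 and 0.0253, so the numbers were not taken as pairs. Over all genes, an adjusted p under 0.05 was reached by 39 genes in DESeq2 and 4 in edgeR. With 4 mice per genotype, members with large spread such as *Itgb6* and *Itga1* have intervals that span over 3-fold.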
